A study of Homo sapiens with 62 samples.

Results

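The subject of these results is the transcripts of the proteasome, the protease that degrades ubiquitin-tagged proteins, and of its immune form, the immunoproteasome. The set held 37 subunit genes of the 55040 annotated genes in each deposited file, and their entries were found by symbol. They comprised 7 alpha and 7 constitutive beta subunits of the 20S core, 3 immuno beta subunits, 6 ATPases and 11 other subunits of the 19S regulatory particle, and 3 activator subunits. Each symbol had a single entry in the files.

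The cells were GM12878, a human B-lymphoblastoid line immortalised with Epstein-Barr virus, and no group carried a treatment or a genetic change. Full-length cDNA was made with the SMART-seq protocol, which amplifies the messenger RNA of very small inputs. The 20 libraries analysed, of 62 samples in the study, were parts of pools: 10 cells were pooled and divided into 10 parts, and each part was handled like a single cell to measure technical variation. In the numbered set the 10 splits are counted from 1 to 10, and in the unnumbered set the 10 splits have only library numbers (232, 233 and 246 to 253). The titles of 9 of the 10 unnumbered splits, all but 247, mark the record as replaced by a later one, which was not analysed here, and no numbered title does. The labels do not say outright that each set came from 1 pool or that the sets came from separate cultures, so p-values measure the spread between splits, which may be technical only. By experiment number, numbered splits 5 to 8 form a run (run a) apart from the other 6 (run b), and unnumbered splits 232 and 233 (run c) apart from the other 8 (run d). No run holds splits of both sets, so set and run cannot be told apart. Values are FPKM, fragment counts scaled to transcript length and to all fragments mapped, and depth is given in M fragments (M, megafragments). In bulk parts of a pool, fewer expressing cells and less RNA per cell cannot be told apart.

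Estimated depths ran from 11.8 to 20.6 M fragments among numbered splits and from 23.3 to 38.7 M among 8 unnumbered ones. Unnumbered split 252 had 7.79 M and split 247 only 0.128 M, at which 100 FPKM on a transcript of 1 kilobase corresponds to 12.8 fragments. The 8 B-lymphoblastoid marker genes summed to 7586 to 12989 FPKM in numbered and 3855 to 6368 FPKM in unnumbered splits. Of these 8 genes, 4 passed the limma test given below as higher in the numbered set, as did 4.07% of all genes tested. Of 6 T-cell markers, CD3D was listed at 0 throughout and the sum reached 53.4 FPKM in numbered and 5.61 FPKM in unnumbered splits. CD2 reached 1 FPKM in 6 numbered splits and 1 unnumbered split, CD3E in 3 and 0, and IL7R in 1 and 0. Of 6 monocyte markers, CD14, S100A8 and FCN1 were listed at 0 throughout, and the sum reached 53.8 and 1.65 FPKM. CSF1R reached 1 FPKM in 10 numbered and 8 unnumbered splits, and S100A9 in 1 and 0. CSF1R did not pass the limma test (adjusted p = 0.335 by limma). The rank-sum test given below called it as higher in the numbered set, as it did 753 of all 10946 genes tested. The 4 erythroid markers summed to at most 0.0065 FPKM, and the 6 epithelial or fibroblast markers to at most 1.19 FPKM in numbered and 2.61 FPKM in unnumbered splits. The part of these marker differences in the results below was not tested.

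The proteasome core is a barrel of stacked rings. Its outer rings of alpha subunits gate the entry of substrates, and its inner rings of beta subunits hold the catalytic sites, which are supplied by PSMB5, PSMB6 and PSMB7. In the immunoproteasome, which interferon induces and which lymphoid cells carry constitutively, PSMB8, PSMB9 and PSMB10 take the places of these subunits and change the peptides that are offered on class I major histocompatibility molecules. The 19S particle recognises ubiquitin chains, removes them and unfolds the substrate with its ATPase ring. The PA28 activator, made of PSME1 and PSME2, opens the core without ubiquitin and is also induced by interferon.

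The start regions of the interferon-inducible members are shown because the means of PSMB8, PSMB9 and PSMB10 were higher in the numbered set and those of PSME1 and PSME2 in the unnumbered set. Windows from 250 bases before to 50 bases after the annotated start were found in RefSeq (build GRCh38.p14) for 32 of the 37 members, and PSMA7, PSMB1, PSMB6, PSMB7 and PSMD4 had none. The letters GAAANNGAA, the core of the interferon-stimulated response element, were searched on both strands. Capitals mark the match, which in PSMB8 and PSME1 lies on the opposite strand and at or after the start, so that only a short stretch around it is given. The window of PSMB9 held no match on either strand, which says only that these letters are not in it. PSMB4 is added as the core subunit that differed most clearly between the sets.
PSMB10, chr16:67936851-67936950, minus strand, the 100 bases before the start: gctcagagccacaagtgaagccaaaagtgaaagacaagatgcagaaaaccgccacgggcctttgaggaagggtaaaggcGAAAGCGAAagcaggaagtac
PSME2, chr14:24146611-24146710, minus strand, the 100 bases before the start: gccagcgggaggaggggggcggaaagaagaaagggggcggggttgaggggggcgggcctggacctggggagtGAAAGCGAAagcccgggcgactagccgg
PSMB8, chr6:32844033-32844059, minus strand, around the match at its second annotated start: tctgtggctTTCGCTTTCacttcctcc
PSME1, chr14:24136191-24136217, plus strand, around the match after the start: cctaccgctTTCGCTTTCccttcgcgg
PSMB9, chr6:32854092-32854191, plus strand, the 100 bases before the start, with no match: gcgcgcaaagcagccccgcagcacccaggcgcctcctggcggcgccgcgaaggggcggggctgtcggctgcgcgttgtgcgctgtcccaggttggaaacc
PSMB4, chr1:151399473-151399572, plus strand, the 100 bases before the start: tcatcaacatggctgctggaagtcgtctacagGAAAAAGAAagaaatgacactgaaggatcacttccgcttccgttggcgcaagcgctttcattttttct

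The core GAAANNGAA occurred in 7 of the 39 windows of members (17.9%) and in 8.11% of all 35116 windows of this length. The genes were PSMA4, PSMB4, PSMB8, PSMB10, PSMC2, PSME1 and PSME2. PSMB8, PSMB10, PSME1 and PSME2 shared the same 9 letters, GAAAGCGAA on 1 strand or the other, which 0.268% of all windows hold. That longer word was searched after the matches had been seen. The antioxidant response element core TGACNNNGC, which NFE2L1 and related factors recognise, occurred in 10 of the 39 windows (25.6%) and in 13.3% of all windows. The gamma-interferon activation site TTCNNNGAA occurred in 7 (17.9%) and in 7.66% of all windows, and CCAAT in 17 (43.6%) and in 34.6%. A match is a string of letters and not a measured binding site.

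Proteasome transcripts were abundant, and the core stood above the regulatory particle. Over the 20 libraries, the 14 constitutive core genes had a median of mean levels of 615 FPKM and the 17 genes of the 19S particle one of 143 FPKM. PSME2 had the highest level of all members, 2293 FPKM, and PSMD3, a scaffold subunit of the 19S particle, the lowest, 3.54 FPKM. PSMD3 was listed at 0 in 6 splits of each set, and it reached 1 FPKM in 3 numbered and 2 unnumbered splits.

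Core transcripts were also found more regularly. Of the 14 core genes, 11 reached 1 FPKM in all 20 libraries, and of the 17 genes of the 19S particle only PSMD11 and PSMD14 did. Longest annotated transcripts had a median of 1733 bases in the core and 2939 bases in the 19S particle, and the part of length in this difference was not tested. Of 37 members, a numbered split held 33.7 ± 2.95 at 1 FPKM or more (SD, n = 10) and an unnumbered split 33.5 ± 2.17 (SD, n = 10). The number ran from 26 in numbered split 9 to 37 in split 8, and from 29 in unnumbered split 253 to 36 in splits 249 and 252, so the sets overlapped almost wholly in detection.

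**Figure D1:**
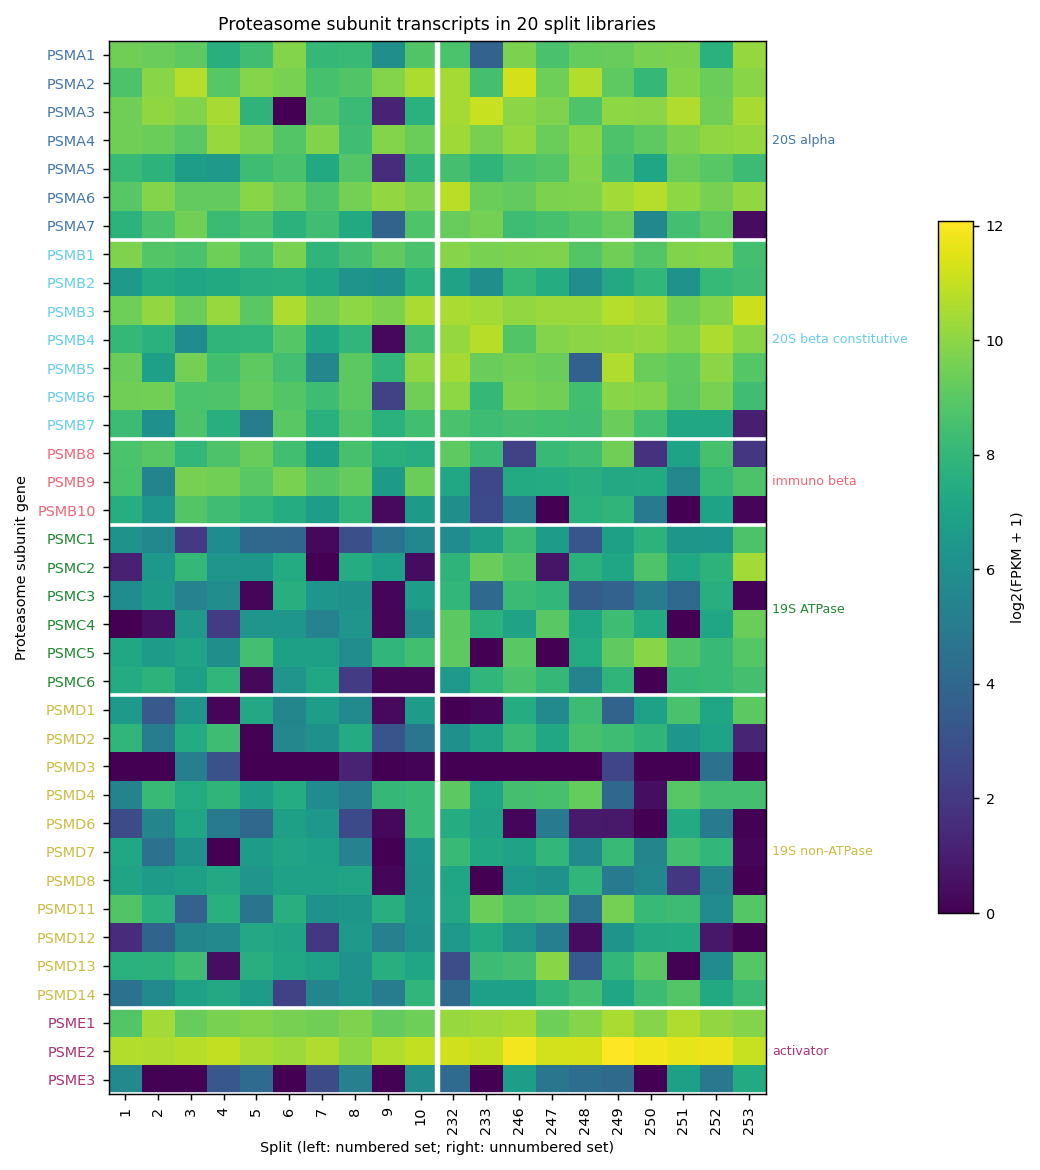
Each cell is the log2(FPKM + 1) of 1 subunit gene (vertical axis, grouped by class) in 1 split (horizontal axis, numbered set on the left and unnumbered set on the right of the white line). PSME2 is bright in all 20 libraries, PSMD3 is dark in most, and numbered split 9 has the most dark cells, with 26 of 37 members at 1 FPKM or more.

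The members took a larger share of the unnumbered libraries. In percent of the summed FPKM of all genes, the 37 members made up 0.718% to 0.905% of the numbered libraries, with a mean of 0.805% ± 0.0581 (SD, n = 10). They made up 1.35% to 1.78% of the unnumbered libraries, with a mean of 1.54% ± 0.159 (SD, n = 10). No split of either set lay within the range of the other. Summed over the members, numbered libraries held 11878 ± 2034 FPKM and unnumbered libraries 18728 ± 2100 FPKM (SD, n = 10 each). The summed FPKM of all genes also differed, at 1.47e+06 ± 199456 FPKM for numbered and 1.22e+06 ± 47042 FPKM for unnumbered libraries (SD, n = 10 each).

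Taken as shares of the library, the alpha, constitutive beta, ATPase, non-ATPase and activator classes each lay higher in all unnumbered than in all numbered splits. The ratio of the set means was 1.76 for alpha, 2.003 for constitutive beta, 3.68 for ATPase, 2.25 for non-ATPase and 2.09 for activator subunits. The immuno beta class had a ratio of 0.606, and its ranges overlapped. On the summed FPKM as deposited, only the activators kept ranges that did not overlap, 1924 to 2942 FPKM against 3172 to 5801 FPKM. There the ratios were 1.45, 1.64, 3.03, 1.85 and 1.75 in the same order, and 0.495 for immuno beta subunits. Shares divide by the summed FPKM of the library, which was larger in the numbered set. How often other groups of genes separate the sets was not examined. Of single genes, 0.356% of those tested lay higher in all unnumbered splits, on FPKM as deposited.

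**Figure D2:**
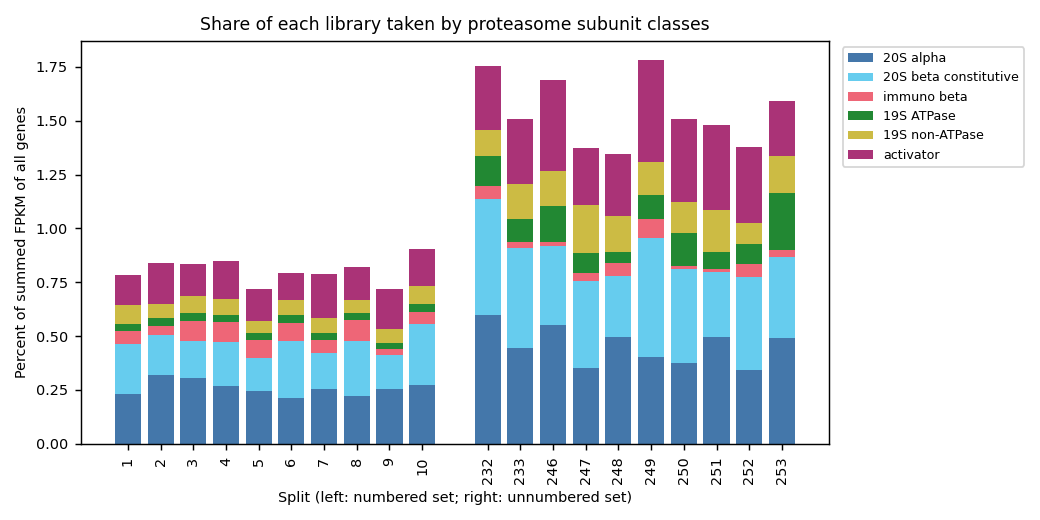
Stacked bars give the percent of each library's summed FPKM (vertical axis) taken by the 6 subunit classes in each split (horizontal axis). The numbered splits end between 0.718% and 0.905% and the unnumbered splits between 1.35% and 1.78%, while the red immuno band has a ratio of unnumbered to numbered means of 0.606.

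Gene by gene, 2 of the 37 members passed the test, PSME2 and PSMB4, and both were higher in the unnumbered set. The test was limma on log2(FPKM + 1) with Benjamini-Hochberg adjustment over the 10946 genes with a mean of at least 1 FPKM, a filter that all 37 members passed. Of all genes tested, 5.5% passed in either direction, 1.43% as higher among unnumbered splits and 4.07% as higher among numbered splits. No member passed as higher in the numbered set by limma or by the rank-sum test, although 2 members, PSMB9 and PSMB10, had an unadjusted p under 0.05 there. In the other direction 10 members had an unadjusted p under 0.05. Of all 10946 genes tested, 1281 had an unadjusted p under 0.05 as higher in the numbered set and 523 as higher in the unnumbered set. No member was called as higher in the numbered set under any of the 13 alternatives, and between 1 and 5 were called as higher in the unnumbered set.

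The differences of the members, as numbered minus unnumbered, had a median of -0.51 on the log2 scale, and that of all genes tested was 0.36. The difference was below 0 for 26 members and above 0 for 11. Relative to the median of all genes, 32 members lay below and 5 above: PSMB8, PSMB9, PSMB10, PSMD6 and PSMD8. The median of all genes moved with the scaling, to 0.24 with size factors, 0.23 with TPM and 0.00 with the length trend removed, and that of the members was then -0.75, -0.77 and -0.90. With the length trend removed, 260 of all genes were called for the numbered and 257 for the unnumbered set, against 445 and 157 as deposited. They split into 339 and 212 with size factors and into 367 and 237 with TPM.

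**Figure D3:**
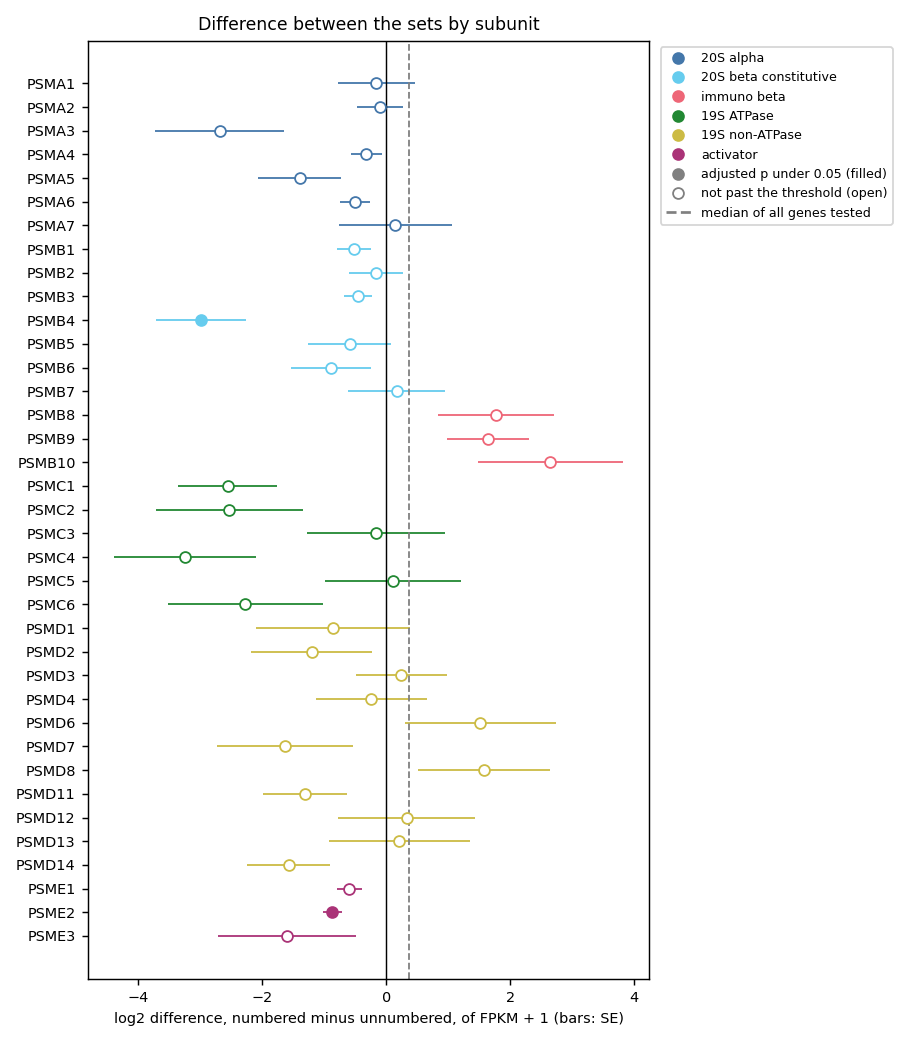
Points are the log2 differences of FPKM + 1 between the sets (horizontal axis, numbered minus unnumbered) for each subunit gene (vertical axis), bars are the standard errors, and filled points passed the adjusted threshold. PSMB4 and PSME2 are filled on the left, the 3 immuno beta genes lie to the right of the dashed median of all genes, and the ATPases reach furthest to the left.

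The alpha subunits form the outer rings of the core and its gate. None of the 7 passed the limma test or the rank-sum test, 3 had an unadjusted p under 0.05 (PSMA3, PSMA5 and PSMA6), 6 of 7 had a difference below 0, and their median was -0.32. PSMA2 ranged from 374 through a median of 853 to 1690 FPKM in the numbered and from 258 through 789 to 2529 FPKM in the unnumbered set. The numbered range lay wholly within the unnumbered one, and the difference was -0.10 (SE 0.374, adjusted p = 0.899 by limma). It turned to 0.13 without run a. PSMA6 ranged from 416 through 719 to 1119 FPKM in the numbered and from 576 through 947 to 1783 FPKM in the unnumbered set. Only 3 numbered splits lay below the lowest unnumbered one, and the difference of -0.51 (SE 0.242) had an adjusted p of 0.291 by limma. PSMA3 had the largest difference of the class, -2.69 (SE 1.04, adjusted p = 0.157 by limma), with numbered split 6 listed at 0 and split 9 at 1.32 FPKM. The mean level was higher in the unnumbered set for all 7 genes. The value of PSMA4 in unnumbered split 248 carried a failed status in the deposited file, the only 1 of the 740 member values that was not marked as sound.

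The constitutive beta subunits include the catalytic PSMB5, PSMB6 and PSMB7 and the structural PSMB1 to PSMB4. PSMB4 (chr1:151372010-151374420 in the deposited files), a non-catalytic subunit of the inner ring, was the only core gene that passed. It stood at 262, 209, 58.5, 238, 242, 470, 142, 249, 0.203 and 334 FPKM in numbered splits 1 to 10. In the unnumbered splits it ranged from 446 through a median of 1029 to 1757 FPKM. Of the numbered splits, 9 lay below every unnumbered one, and only split 6, at 470 FPKM, lay above the lowest, split 246. The mean was 221 ± 133 FPKM against 1084 ± 360 FPKM (SD, n = 10 each), a ratio of 4.91. The log2 difference was -2.99 (SE 0.727, adjusted p = 0.0114 by limma), and it was -2.27 without numbered split 9 and unnumbered splits 247 and 253. Both runs of the numbered set were low, with means of 276 FPKM in run a and 184 FPKM in run b, and without run a the difference was -3.64 (adjusted p = 0.016 by limma). Without the filter on low values the adjusted p was 0.0502, which ends the call.

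PSMB3, also structural, was the most abundant core gene, with 508 through 927 to 1535 FPKM in the numbered and 705 through 1287 to 2207 FPKM in the unnumbered set. Its difference of -0.46 (SE 0.226) had an adjusted p of 0.309 by limma. With the length trend removed it was -0.90 with an adjusted p of 0.0338. PSMB5, the chymotrypsin-like subunit, ranged from 47.8 through 438 to 1083 FPKM in the numbered and from 12.5 through 649 to 1566 FPKM in the unnumbered set. Its lowest values were single splits, numbered 7 and unnumbered 248, and the difference was -0.59 (SE 0.672, adjusted p = 0.635 by limma). PSMB6, the caspase-like subunit, ranged from 4.20 through 491 to 715 FPKM in the numbered and from 260 through 758 to 1038 FPKM in the unnumbered set. Its numbered range without split 9 began at 317 FPKM, and the difference was -0.89 (SE 0.644, adjusted p = 0.521 by limma). PSMB7, the trypsin-like subunit, ranged from 32.4 through 260 to 501 FPKM in the numbered and from 1.04 through 334 to 641 FPKM in the unnumbered set. Its difference was near 0 at 0.17 (SE 0.783, adjusted p = 0.922 by limma), and its sign turned under 5 of 13 alternatives. Of the 7 constitutive beta genes, 1 passed the test and 6 had a difference below 0, with a median of -0.52.

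The immuno beta subunits went the other way. All 3 had a higher mean in the numbered set and a difference above 0, with a median of 1.77, but none passed the limma test or any of the 13 alternatives, the rank-sum test among them. PSMB8 (chr6:32808494-32812480), the immune counterpart of PSMB5, ranged from 115 through a median of 359 to 616 FPKM among numbered splits. In the unnumbered set it ranged from 2.29 through 294 to 713 FPKM. Splits 246, 250 and 253 lay under 5 FPKM while the other 7 lay between 126 and 713 FPKM, which left the sets with similar medians and a log2 difference of 1.77 (SE 0.934, adjusted p = 0.352 by limma). PSMB9 (chr6:32811913-32847364), the counterpart of PSMB6, ranged from 42.2 through 546 to 797 FPKM in the numbered and from 5.18 through 165 to 409 FPKM in the unnumbered set. Of the numbered splits, 7 lay above the highest unnumbered one. The means were 504 ± 266 and 173 ± 111 FPKM (SD, n = 10 each), a ratio of 2.91, with a log2 difference of 1.65 (SE 0.66, adjusted p = 0.18 by limma, 0.0822 to 0.565 over the alternatives).

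PSMB10 (chr16:67968405-67970990), the counterpart of PSMB7, stood at 185, 80.9, 454, 326, 258, 175, 109, 243, 0.236 and 93.3 FPKM in numbered splits 1 to 10. In unnumbered splits 232, 233 and 246 to 253 it stood at 63.5, 5.58, 35.6, 0, 211, 235, 29.01, 0, 126 and 0.153 FPKM. The unnumbered set thus fell into 3 splits above 100 FPKM and 7 below, 2 of them listed at 0, while 7 numbered splits were above 100 FPKM. The difference was 2.65 (SE 1.18, adjusted p = 0.246 by limma). The deposited loci of PSMB8 and PSMB9 overlap, and TAP1, which pumps peptides to class I molecules, lies within the locus of PSMB9. With strand use not given in the sources used here, reads of these genes may have been shared. TAP1 itself was low in both sets, with medians of 10.6 and 1.496 FPKM and a highest value of 112 FPKM.

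The immune share of the catalytic subunits was higher in most numbered splits. PSMB8, PSMB9 and PSMB10 made up 30.4% to 60.6% of the FPKM of the 6 catalytic genes in the numbered set, with a mean of 46.1% ± 9.28 (SD, n = 10). They made up 9.41% to 51.4% in the unnumbered set, with a mean of 23.5% ± 12.7 (SD, n = 10). Unnumbered split 248, at 51.4%, was the only 1 of its set above 34.1%, and the lowest numbered split was 10, at 30.4%. Within the numbered set the mean was 51.0% ± 4.67 (SD, n = 4) in run a and 42.9% ± 10.5 (SD, n = 6) in run b. Without splits 9, 247 and 253 the set means were 46.8% and 22.4%.

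In each pair the mean share was higher in the numbered set, with wide ranges. The share of PSMB9 in PSMB9 and PSMB6 was 53.7% ± 23.2 for numbered and 20.5% ± 15.4 for unnumbered splits (SD, n = 10 each). That of PSMB10 in PSMB10 and PSMB7 was 41.5% ± 24.7 and 15.6% ± 16.2, and that of PSMB8 in PSMB8 and PSMB5 was 47.5% ± 19.6 and 26.7% ± 28.0. A single split could hold both extremes, as in numbered split 9, where the share of PSMB9 was 95.7% and that of PSMB10 was 0.115%.

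**Figure D4:**
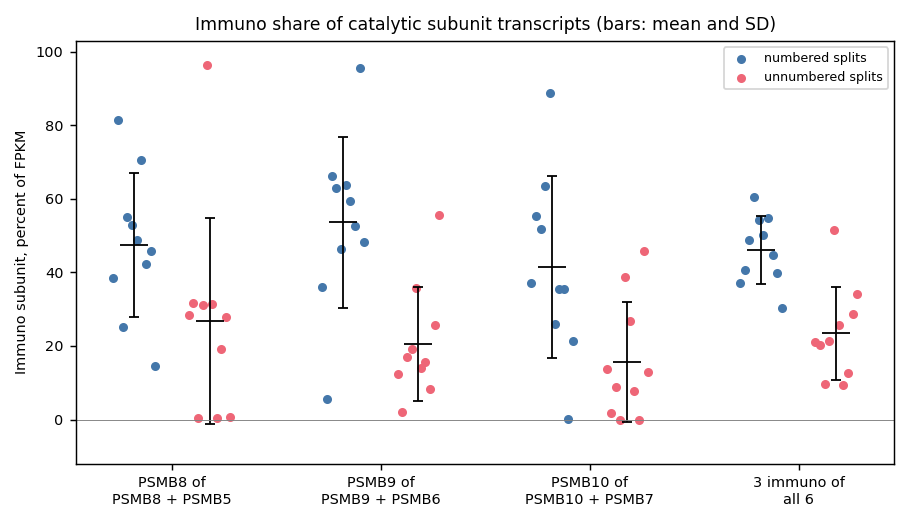
Points are single splits and bars the mean and SD of 10 splits, giving the percent of FPKM (vertical axis) that the immune subunit takes in each catalytic pair and in all 6 genes together (horizontal axis). For all 6 genes the numbered splits lie between 30.4% and 60.6% and the unnumbered splits between 9.41% and 51.4%, and single pairs scatter much more widely.

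The ATPases of the 19S particle form the ring that unfolds substrates. None of the 6 passed the limma test. The rank-sum test called PSMC1 and PSMC4 as higher in the unnumbered set, as it did 262 of all 10946 genes tested. Unadjusted by limma, 3 of the 6 had a p under 0.05. Of the 6, 5 had a difference below 0, and their median of -2.41 was the lowest of all classes. PSMC2 ranged from 0.00997 through 84.6 to 261 FPKM in the numbered and from 0.628 through 226 to 1365 FPKM in the unnumbered set. It was above 100 FPKM in 9 unnumbered and 4 numbered splits, and the difference was -2.54 (SE 1.18, adjusted p = 0.279 by limma). PSMC5 ranged from 58.9 through 124 to 355 FPKM in the numbered set. In unnumbered splits 232, 233 and 246 to 253 it stood at 532, 0, 508, 0, 168, 562, 970, 426, 287 and 473 FPKM. Unnumbered values were thus either listed at 0, in splits 233 and 247, or above the numbered median, and the fitted difference of 0.11 (SE 1.1, adjusted p = 0.964 by limma) turned to -0.67 without split 247.

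The other ATPases were chosen for mention after their values had been seen. PSMC1 ranged from 0.196 through 19.5 to 73.3 FPKM in the numbered and from 8.45 through 101 to 422 FPKM in the unnumbered set. Unnumbered split 248 was the only 1 of its set below 57 FPKM, and 3 numbered splits lay below it. The difference was -2.56 (SE 0.801, adjusted p = 0.0635 by limma). PSMC4 was listed at 0 in numbered split 1 and never exceeded 89.3 FPKM in that set, and 9 unnumbered splits were above 100 FPKM. Its difference was -3.25 (SE 1.15, adjusted p = 0.114 by limma). PSMC1 passed the threshold under 5 alternatives and PSMC4 under 3. As a share of the members' FPKM, the 6 ATPases made up 3.72% to 5.11% in the numbered and 3.63% to 16.5% in the unnumbered set, with means of 4.25% ± 0.468 and 8.03% ± 3.58 (SD, n = 10 each).

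The non-ATPase subunits of the 19S particle include the ubiquitin receptor PSMD4, the deubiquitinase PSMD14 and the scaffold of the lid. None of the 11 passed the limma or the rank-sum test, and only PSMD14 had an unadjusted p under 0.05. In this class 6 had a difference below 0 and 5 above, with a median of -0.24. PSMD11, a lid scaffold subunit, ranged from 12.7 through 136 to 443 FPKM in the numbered and from 23.1 through 373 to 760 FPKM in the unnumbered set. The difference was -1.30 (SE 0.678, adjusted p = 0.344 by limma). PSMD4 ranged from 35.3 through 174 to 291 FPKM in the numbered and from 0.351 through 359 to 598 FPKM in the unnumbered set. Of the unnumbered splits, 7 exceeded every numbered one, while splits 249 and 250 lay below the numbered range, and the difference was -0.24 (SE 0.893, adjusted p = 0.9 by limma). PSMD14 had a difference of -1.58 and PSMD8, a further lid subunit, one of 1.58, which were the extremes of the class together with PSMD7 at -1.63. This class was therefore mixed, and 8 of its 11 mean levels were higher in the unnumbered set.

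Of the 3 activators, PSME2 passed the test and PSME1 and PSME3 did not. PSME2 (chr14:24612574-24616779), the beta subunit of PA28, stood at 1645, 1578, 1777, 2031, 1489, 1260, 1599, 1037, 1661 and 1986 FPKM in numbered splits 1 to 10. In the unnumbered splits, 232, 233 and 246 to 253, it stood at 2393, 2072, 3701, 2460, 2509, 4311, 3625, 3152, 3426 and 2147 FPKM. Every unnumbered split exceeded every numbered one, which held for 0.356% of all genes tested. The means were 1606 ± 301 and 2980 ± 767 FPKM (SD, n = 10 each), a ratio of 1.86. The log2 difference was -0.87 (SE 0.153, adjusted p = 0.000405 by limma), with a range of -1.23 to -0.71 over the 13 alternatives, each of them past the threshold. The numbered mean was 1346 FPKM in run a and 1780 FPKM in run b, and without run a the difference was -0.71 (adjusted p = 0.0132 by limma). The lower of the 2 splits of run c, at 2072 FPKM, also lay above every numbered split.

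A processed copy of the gene, PSME2P2, was listed at 684 ± 153 and 1442 ± 442 FPKM (SD, n = 10 each), with a log2 difference of -1.04 (SE 0.207, adjusted p = 0.00158 by limma). Reads of the gene and its copy may have been divided between them, so the level of PSME2 alone is uncertain. Their sum was 1447 to 2983 FPKM in the numbered and 2886 to 5982 FPKM in the unnumbered set. These ranges overlapped between 2886 and 2983 FPKM, so the full separation of the sets seen for PSME2 alone did not hold for the sum. The means of the sum still differed, at 2291 ± 447 and 4422 ± 1107 FPKM (SD, n = 10 each). PSMC1 has copies in the same position, of which PSMC1P5 had medians of 70.1 FPKM among numbered and 422 FPKM among unnumbered splits, more than PSMC1 itself.

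PSME1 (chr14:24605367-24608176), the alpha subunit of PA28, ranged from 465 through 734 to 1363 FPKM in the numbered and from 687 through 1156 to 1604 FPKM in the unnumbered set. Numbered split 2 held the highest value of its set, and the next, split 5, stood at 875 FPKM. The difference was -0.60 (SE 0.205, adjusted p = 0.0984 by limma), and it passed the threshold under 6 of 13 alternatives, with an adjusted p between 0.00181 and 0.242. PSME3, a nuclear activator of a separate kind, stood at 51.2, 0.0649, 0.05, 8.84, 17.5, 0, 5.71, 36.9, 0.0373 and 60.4 FPKM in numbered splits 1 to 10. In the unnumbered splits, 232, 233 and 246 to 253, it stood at 17.5, 0, 109, 25.8, 19.9, 17.0, 0, 114, 27.4 and 167 FPKM. It was far lower than PSME1 and PSME2 in every library, and the difference was -1.60 (SE 1.11, adjusted p = 0.498 by limma).

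Within the numbered set, no member differed between runs a and b by limma with Benjamini-Hochberg adjustment, and 1 of the 37, PSMC4, had an unadjusted p under 0.05. Of all 10373 genes tested there, 0.00964% passed. Unadjusted, 430 of them had a p under 0.05 as higher in run a and 84 as higher in run b. The median difference of the members, run a minus run b, was 0.03 and that of all genes 0.33. The lowest adjusted p among members was 0.824.

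The spread between splits fell with the level of the gene. The coefficient of variation (CV, the SD divided by the mean) over the 10 splits had a median of 0.629 over the members for numbered and 0.643 for unnumbered splits. Genes of like level, within a factor of 1.5 of each member's mean, had median CVs of 0.718 and 0.668. The CV lay below that of genes of like level for 22 members for numbered and 18 for unnumbered splits, so the members were about as variable as other genes. PSME2 had the lowest CV of the numbered set, 0.188, and PSME1 that of the unnumbered set, 0.247. The constitutive core genes had a median CV of 0.565 and 0.467, above the 0.423 and 0.395 of genes of like level. PSMA3, at 0.916 in the numbered set against 0.395, and PSMA2, at 0.693 in the unnumbered set against 0.35, stood far above. The 19S genes had 0.869 and 0.860, against 0.947 and 0.821. PSMB10 had the highest CV of the immune subunits, 1.27 in the unnumbered set against 1.23 for genes of like level.

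**Figure D5:**
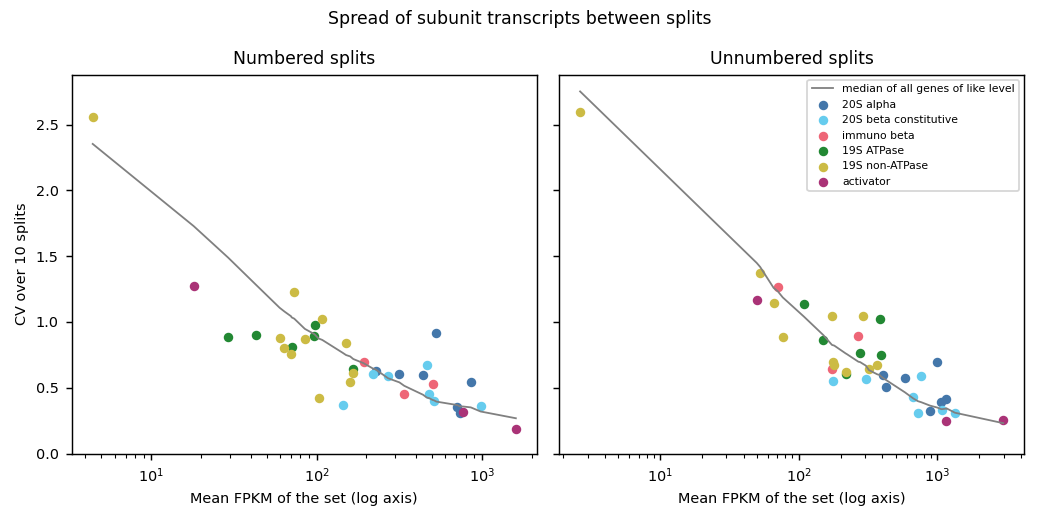
Points give the CV over 10 splits (vertical axis) against the mean FPKM of the set (horizontal log axis) for each member, with the numbered set on the left and the unnumbered set on the right. The grey line joins the median CV of genes of like level, and members scatter on both sides of it, with PSME2 at the lower right and PSMD3 at the upper left.

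Genes that act with the proteasome did not follow a common direction. Of 11 genes that supply ubiquitin or deliver substrates, 4 passed the test as higher in the numbered and 1 as higher in the unnumbered set. The shares of all genes tested were 4.07% and 1.43%. UBB, which encodes polyubiquitin, ranged from 1260 to 2143 FPKM in the numbered and from 3181 to 5222 FPKM in the unnumbered set without overlap, a difference of -1.33 (SE 0.122, adjusted p = 5.69e-08 by limma). RPS27A, which encodes ubiquitin fused to a ribosomal protein, went the other way without overlap, with 2832 to 6006 FPKM against 1562 to 2363 FPKM, a difference of 1.22. These 2 ubiquitin genes thus differed in opposite directions.

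Of 7 regulators of proteasome genes, 2 passed, both as higher in the numbered set. In that direction 4.07% of all genes tested passed. NFE2L1, the transcription factor that raises proteasome genes when proteolysis is blocked, reached 1 FPKM in 9 numbered splits and in 1 unnumbered split. Its highest values were 32.6 and 3.11 FPKM, and the difference was 3.10 (SE 0.668, adjusted p = 0.00382 by limma). IRF1, which activates the immune subunits, reached 1 FPKM in 7 numbered splits and in 1 unnumbered split, with highest values of 85.6 and 14.5 FPKM and a difference of 3.84 (SE 0.963, adjusted p = 0.0146 by limma). Of all genes, numbered libraries held 5554 ± 1114 at 1 FPKM or more and unnumbered libraries 4475 ± 549 (SD, n = 10 each). The longest annotated transcripts of NFE2L1 and IRF1 had 4774 and 5153 bases, and these 2 calls were not followed with the length trend removed. NFE2L2, a relative of NFE2L1, had medians of 3.78 and 4.41 FPKM and a difference of -0.41 (adjusted p = 0.881 by limma).

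None of the 9 assembly factors passed the limma or the rank-sum test, and 1 of them, PSMG2, had an unadjusted p under 0.05. POMP, which completes the core, was the most abundant, with 197 through 349 to 518 FPKM against 289 through 391 to 650 FPKM, a difference of -0.24 (adjusted p = 0.64 by limma). PSMG2, an early assembly chaperone, was next, with medians of 94.5 and 35.9 FPKM and a difference of 2.34 (SE 0.948, adjusted p = 0.185 by limma). None of the 9 genes for trimming and transport of peptides passed either test, 1 of them (ERAP1) had an unadjusted p under 0.05, and LAP3 and TAPBP, the most abundant, had differences of 0.62 and -1.35. Of 10 further proteasome-bound genes, 8 were tested, none passed by limma, 3 had an unadjusted p under 0.05 and the rank-sum test called UCHL5. The rank-sum test called 262 of all 10946 genes tested as higher in the unnumbered set. UCHL5, a deubiquitinase of the 19S particle, exceeded 100 FPKM in 6 unnumbered and in no numbered splits, with a difference of -3.76 (SE 1.16, adjusted p = 0.0593 by limma). SHFM1, the smallest 19S subunit and the most abundant of this group, had medians of 587 and 329 FPKM and a difference of 0.67 (adjusted p = 0.278 by limma). PSMF1, an inhibitor of the proteasome, was next, with highest values of 398 and 365 FPKM and a difference of 0.94 (adjusted p = 0.692 by limma).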

How the data were processed

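The 20 deposited files held FPKM for 55040 genes, made by the authors with the aligner TopHat 1.4.1 and the quantifier Cufflinks 2.0.2, which the submitters' processing notes name. Not given in the sources used here are the genome build and strand setting of these files, and gene loci are as deposited, counted from 1. FPKM rests on annotated transcript length and on all fragments mapped, so an abundant gene lowers the others. Libraries were grouped by their labels, and 42 samples were not analysed here. The members and gene lists were chosen with earlier results of these data known. Depth was estimated from the deposited confidence bounds of 10 mitochondrial genes.

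Genes with a mean of at least 1 FPKM over the 20 libraries (10946) were tested with limma 3.58.1 (R 4.3.3, trended variance) on log2(FPKM + 1), numbered minus unnumbered, with Benjamini-Hochberg adjustment at 0.05. Fold changes on this scale understate the change of low genes. The program was tested on simulated data. Member counts, class sums, shares and CVs were computed with Python 3.11.15 and pandas 2.3.3 and carry no test. Genes with full values were the 2 most abundant of each class, members past the threshold, the 6 catalytic genes and PSME1 to PSME3, and from each pathway list the genes past the threshold and the 2 most abundant. PSMA3, PSMC1, PSMC4, PSMD3, PSMD7, PSMD8, PSMD14, TAP1 and UCHL5 were named after their values were seen. Some genes that this rule selects are not reported here. Transcript lengths came from GENCODE 29 and covered 97.9% of genes tested. The 13 alternatives concern the pseudocount, the filter, scaling, length, run a (runs c and d were not varied), single splits and the test.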

Additional observations from a re-analysis of the deposited data

Results flagged for a closer look

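In 10 of 44 groups of 10 splits examined, 1 split stood so far from its neighbour, relative to the range of the group, that it passed Dixon's 95% limit. Chance flags about 1 in 20 groups where values are normally distributed and groups independent. Here some values lay near 0 and the groups shared splits and genes, so the count cannot be set against that rate. The scale was log2(FPKM + 1) for single genes, and the count or percent itself for numbers of members and shares. Numbered split 9 accounted for 4 of them. It was the lowest of its set for PSMB4 (0.203 FPKM), PSMB6 (4.20 FPKM) and PSMB10 (0.236 FPKM), and it had the fewest members at 1 FPKM or more (26). Its estimated depth, 19.67 M fragments (megafragments), was among the highest of its set, and it had 3919 genes at 1 FPKM or more, the fewest of the numbered set.

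In the unnumbered set, PSMB4 was lowest in split 246 (445.5 FPKM), PSMB5 in split 248 (12.5 FPKM), PSMB7 in split 253 (1.04 FPKM), PSMB9 in split 233 (5.18 FPKM) and PSMC2 in split 247 (0.628 FPKM). Split 247 was the library of 0.128 M fragments, and split 253 had 3050 genes at 1 FPKM or more, the fewest of all 20. The low PSMB5 of split 248 also set the share of PSMB8 in PSMB8 and PSMB5 there, 96.3%, apart from the other unnumbered splits.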

How the results depend on the processing

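The number of members called as higher in the unnumbered set was 2 as reported, 4 with pseudocount 10, size factors, TPM or the length trend removed, 5 with the exact rank-sum test and 1 without the filter, and 2 or 3 under the other 7 alternatives. PSME2 was called under all 13 alternatives and PSMB4 under 12. Among all genes, those higher in the unnumbered set went from 157 to 237 with TPM, 257 with the length trend removed, 262 with the rank-sum test and 92 among protein-coding genes alone. Those higher in the numbered set went from 445 to 260 with the length trend removed, 285 without run a, 753 with the rank-sum test and 236 among protein-coding genes alone. Between runs, the count of all genes higher in run a went from 1 to 0 with pseudocount 0.1 and to 0 without split 9, and that higher in run b from 0 to 1 with size factors.

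Signs were followed only for the 17 members with full values. Among these, differences that changed sign were those of PSMB7 (-0.030 with pseudocount 10, -0.054 with size factors, -0.11 with TPM, -0.28 with the length trend removed, -0.54 without splits 9, 247 and 253) and PSMC5 (-0.48, -0.18, -0.19 and -0.26 under the first 4 of these, -0.67 without split 247, -0.63 without splits 9, 247 and 253). PSMA2 (0.13) and PSMD4 (0.24) changed sign with run a as a covariate or left out, and the members' median between runs was -0.19 without split 9. The cause was not tested. Class shares, detection and immune shares moved by less than 1 SD. Summing all entries of a symbol was not run, since each member had 1. No paired analysis was possible because the unnumbered splits carry no split number. Splits 247 and 252 limit the precision of low members.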
